A study of Mus musculus with 17 samples.

Results

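Late-only sites were stretches of chromatin that ranked among the strongest ATAC-seq peaks of bone marrow-derived macrophages (BMDMs) after 18 h of lipopolysaccharide (LPS) but not before or at 1 h of stimulation. The members were chosen by their presence in the peak lists: a peak had to be among the 24389 best of the list, ranked by p-value, in at least 5 of the 6 lists at 18 h, in at most 1 of the 6 lists at 0 h and in at most 1 of the 5 lists at 1 h. This gave 799 of the 34141 consensus sites (2.34%), which were merged peaks found in at least 2 of the 17 lists. Their presence over LPS time is therefore a description of how they were selected and carries no test.

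ATAC-seq cuts accessible DNA with the Tn5 transposase, so that a peak marks open chromatin. The 17 samples were BMDMs from bone marrow of male mice aged 6 to 12 weeks that was cultured for 7 days with L929-conditioned medium. The methods name C57Bl6/J for the Cre-carrying parents of the mouse line and no strain for the parents with the loxP-flanked Nr4a1. BMDM-WT came from wild-type mice and Nur77-KO from mice lacking the nuclear receptor Nur77 (gene Nr4a1) in the whole body, after germline deletion with a CMV-driven Cre. According to the methods the KO mice used no longer carried Cre, although the genotype tag of the KO samples reads "cre". The cells received no LPS (0 h) or 100 ng/ml LPS for 1 or 18 h, with 3 samples in each group except WT at 1 h, which had 2, called replicate 1-2 and replicate 3. Nothing in the labels ties the replicates to separate animals, so p-values measure only the spread between these samples, which may be technical.

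The deposited lists held 24389 to 71456 intervals and no read totals. The lists were shorter in KO at 18 h (29568 to 36136 intervals) than in WT at 18 h (46364 to 61492), and KO 18 h replicate 1 stood apart with a median peak width of 135 bp against 338 to 661 bp in the other lists. Of 12 macrophage marker genes, 9 had a promoter peak in at least 15 lists, including Adgre1, Itgam and Spi1, and 1, Cx3cr1, had one in no list. No promoter peak was found in any list for 6 of 6 T-cell markers, 4 of 5 of B cells, 5 of 7 of neutrophils and their precursors, 4 of 5 of dendritic cells and 3 of 5 of fibroblasts. The others had promoter peaks in 15 lists (S100a8), 14 (Col1a1), 13 (Zbtb46), 10 (Ms4a1 and Camp) and 1 (Pdgfra). The peak lists could not check the genotype labels through the targeted gene, whose promoter carried a deposited peak at 0 h in 3 of 3 WT and 3 of 3 KO lists and at 18 h in 3 of 3 WT and 0 of 3 KO lists.

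LPS is sensed by Toll-like receptor 4, which switches on NF-kB and AP-1 within minutes and, through interferon-beta released by the macrophage itself, a later wave of STAT and IRF activity. C/EBP factors, and C/EBPβ above all, belong to the macrophage lineage factors and are induced further by LPS, where they act on genes of the acute-phase and late inflammatory response. Sites that open hours after the stimulus are therefore commonly read by their motifs: ISRE for IRF and STAT complexes, the C/EBP palindrome, the AP-1 element and the NF-kB element.

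The sequences below show the best-ranked late-only site and, for each of 6 motifs, the best-ranked late-only site that carried it outside exons. Sites at Hp, Nos2 and Il10, added after their values were seen, are shown because their genes are known late LPS targets. Each run covers the searched window of 201 bases centred on the summit, on the + strand of GRCm38 (mm10), and capitals mark matches to C/EBP (TTGCNNAA or TTACNNAA), AP-1 (TGANTCA), C/EBP-ATF (TGATGNAA), ISRE (GAAANNGAAA), PU.1 (GAGGAAGT) or STAT (TTCNNNGAA), read on either strand. The Ifit3 site (intergenic, 6213 bp upstream of the start site, chr19:34577218-34577418) held none of these motifs. The Slc28a2 site (intron, chr2:122450500-122450700) held C/EBP and PU.1, the Pdcd1lg2 site (intergenic, chr19:29389369-29389569) STAT, the Dennd3 site (intergenic, chr15:73487393-73487593) C/EBP-ATF, the Gm17268 site of the Ccl2 and Ccl7 neighbourhood (intergenic, chr11:82041767-82041967) ISRE and the Naip2 site (an intron of Naip5, chr13:100213788-100213988) AP-1. The Hp site (intergenic, chr8:109585791-109585991) held C/EBP, the Nos2 site (intergenic, 44543 bp upstream, chr11:78876144-78876344) AP-1, and the Il10 site (intergenic, 22080 bp upstream, chr1:130997665-130997865) 2 matches to C/EBP.
Ifit3: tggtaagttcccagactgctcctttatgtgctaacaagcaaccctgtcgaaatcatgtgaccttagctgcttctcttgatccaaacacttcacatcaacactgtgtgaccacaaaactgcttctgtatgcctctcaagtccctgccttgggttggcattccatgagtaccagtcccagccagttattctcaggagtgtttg
Slc28a2: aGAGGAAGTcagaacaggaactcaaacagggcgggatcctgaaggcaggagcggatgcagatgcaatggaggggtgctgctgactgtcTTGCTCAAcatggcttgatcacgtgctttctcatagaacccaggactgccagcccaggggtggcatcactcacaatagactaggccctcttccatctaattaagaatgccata
Pdcd1lg2: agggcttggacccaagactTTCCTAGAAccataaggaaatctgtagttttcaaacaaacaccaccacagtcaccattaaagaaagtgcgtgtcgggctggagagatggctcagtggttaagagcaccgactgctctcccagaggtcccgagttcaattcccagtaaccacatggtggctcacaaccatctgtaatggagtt
Dennd3: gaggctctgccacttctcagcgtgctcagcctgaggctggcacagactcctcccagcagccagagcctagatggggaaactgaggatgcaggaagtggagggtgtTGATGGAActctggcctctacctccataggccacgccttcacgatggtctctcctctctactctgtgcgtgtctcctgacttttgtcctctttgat
Gm17268: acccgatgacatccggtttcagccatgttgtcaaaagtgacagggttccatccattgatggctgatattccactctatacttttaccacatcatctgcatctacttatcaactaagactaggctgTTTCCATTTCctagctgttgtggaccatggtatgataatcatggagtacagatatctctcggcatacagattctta
Naip2: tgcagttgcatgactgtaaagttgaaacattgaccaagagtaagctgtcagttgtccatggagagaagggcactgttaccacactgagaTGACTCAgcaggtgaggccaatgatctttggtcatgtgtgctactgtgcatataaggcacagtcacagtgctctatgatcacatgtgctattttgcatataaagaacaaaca
Hp: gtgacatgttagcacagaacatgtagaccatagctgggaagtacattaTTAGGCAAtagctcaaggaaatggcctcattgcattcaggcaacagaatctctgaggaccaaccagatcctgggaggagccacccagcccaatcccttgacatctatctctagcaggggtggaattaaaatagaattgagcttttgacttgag
Nos2: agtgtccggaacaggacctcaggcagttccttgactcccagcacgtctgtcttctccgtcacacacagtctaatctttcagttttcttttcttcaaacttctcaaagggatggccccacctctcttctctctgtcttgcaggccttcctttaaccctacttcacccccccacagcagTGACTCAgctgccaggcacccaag
Il10: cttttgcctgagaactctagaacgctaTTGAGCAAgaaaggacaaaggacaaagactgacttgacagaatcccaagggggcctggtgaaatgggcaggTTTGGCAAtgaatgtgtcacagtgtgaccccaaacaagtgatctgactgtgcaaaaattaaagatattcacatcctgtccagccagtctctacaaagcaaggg

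Among the 799 sites, 347 had a matched-number peak in 6 of 6 lists at 18 h and 452 in 5 of 6. No matched-number peak at 0 or 1 h was found for 497 sites, and 209 sites had the full pattern, with 6 of 6 lists at 18 h and none before. Just outside the rule, 465 sites reached 4 of 6 lists at 18 h, 94 were in 2 lists at 0 h and 119 were in 2 lists at 1 h with the other limits met. In WT the late-only sites carried a matched-number peak in 1.50%, 2.00% and 2.13% of cases in the lists at 0 h, 6.76% and 3.63% at 1 h, and 97.9%, 96.9% and 95.4% at 18 h. In KO the shares were 1.75%, 4.01% and 6.63% at 0 h, 3.63%, 6.38% and 4.88% at 1 h, and 73.5%, 87.4% and 92.5% at 18 h. The lowest share at 18 h belonged to the list with the narrow peaks, from which 212 of the 799 sites were missing.

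Most late-only sites had a weaker peak before LPS rather than none in the longer lists. In the full deposited lists, which run deeper than the 24389 best peaks, a peak was present at 80.0%, 79.8% and 85.6% of the late-only sites in WT at 0 h. In KO at 0 h the shares were 85.6%, 38.5% and 13.3%, in the order of lists with 70397, 37514 and 27429 intervals. A deposited peak was found in at least 3 of the 6 lists at 0 h for 647 sites, in all 6 for 75 and in none for 79. No deposited peak in any of the 11 lists at 0 and 1 h was left for 26 sites. The median rank of the 799 sites, with an absent site placed behind the last peak, was 38321, 38725 and 37327 in WT at 0 h and 17878, 18136 and 18150 in WT at 18 h. The KO medians were 37136, 37515 and 27430 at 0 h and 18833, 17266 and 16892 at 18 h. In KO 0 h replicates 2 and 3 the median lay just behind the last of 37514 and 27429 intervals, so that most late-only sites had no peak there, whereas in the other lists at 0 h the median fell inside the deposited list.

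**Figure D1:**
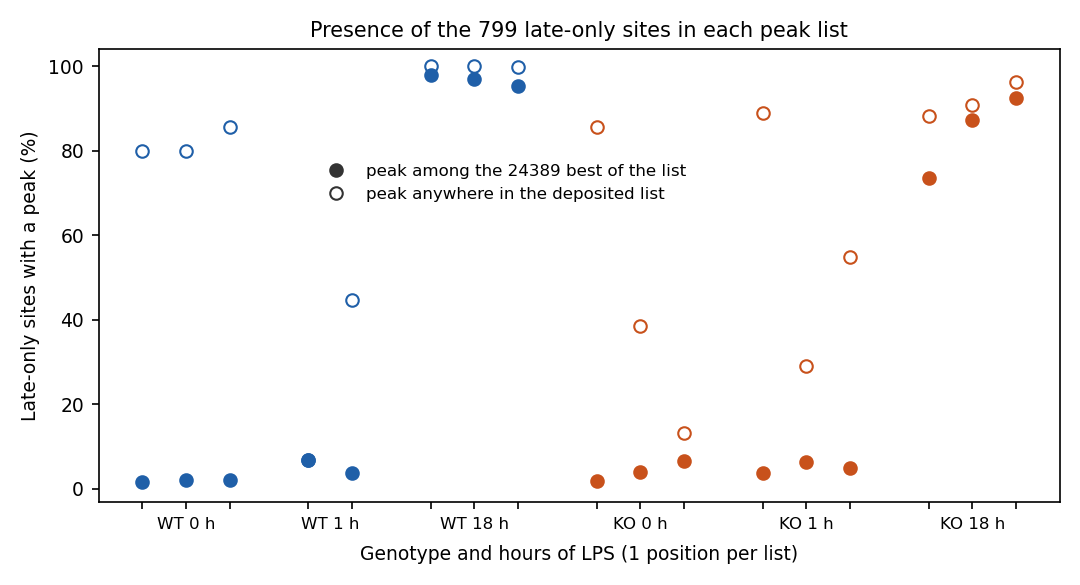
Share of the 799 late-only sites (y axis, percent) with a peak in each of the 17 lists (x axis, by genotype and hours of LPS, 1 position per list in the order of replicates). Filled points count the 24389 best peaks of a list and open points all deposited peaks, blue is WT and orange KO. Filled points sit at 1.50% to 6.76% at 0 and 1 h and at 73.5% to 97.9% at 18 h, while open points at 0 and 1 h range from 6.76% to 88.9%.

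The late pattern was tested in sites chosen anew in the lists of 1 genotype alone and read in the lists of the other. The lists read took no part in that choice, but the consensus sites had been merged over both genotypes. The rule for late-only sites had also used both genotypes. Of the sites chosen in WT 60.8% were late-only sites, and of those chosen in KO 81.5%. The tests therefore bear on the sites chosen in 1 genotype and are no separate test of the late-only sites. In WT, 1002 sites (2.93% of all sites) had a matched-number peak in 3 of 3 lists at 18 h and in none of the 5 lists at 0 and 1 h. Over all consensus sites the KO lists held a peak at 63.2% to 69.8% at 0 h, 63.8% to 68.1% at 1 h, and 56.2%, 63.2% and 64.0% at 18 h. The 1002 sites carried a peak in the KO lists at 4.89%, 7.29% and 9.38% at 0 h, 9.88%, 11.7% and 10.8% at 1 h, and 54.3%, 67.5% and 71.9% at 18 h. Every KO list at 18 h was above every KO list at 0 and 1 h. The mean was 64.5% ± 9.14 (SD, n = 3) at 18 h, 55.6 percentage points above the mean of the lists at 0 and 1 h (p = 0.0238 in a two-sided exact permutation test, where 84 regroupings allow no smaller value; adjusted p = 0.0893 over 5 tests). In KO, 389 sites (1.14% of all sites) were chosen in the same way. Over all consensus sites the WT lists held a peak at 68.7% to 70.4% at 0 h, 59.5% and 66.1% at 1 h, and 67.6% to 70.4% at 18 h. The 389 sites carried a peak in the WT lists at 3.86%, 3.08% and 3.86% at 0 h, 6.94% and 5.66% at 1 h, and 83.0%, 80.7% and 80.5% at 18 h. That difference was 76.7 percentage points (p = 0.0357 in the same exact test, where 56 regroupings allow no smaller value; adjusted p = 0.0893). Both differences were larger than the spread between lists and the groups did not overlap, but neither adjusted p-value passed 0.05. Leaving out KO 18 h replicate 1, 2 or 3 gave 60.7, 54.1 and 51.9 percentage points in the KO lists (exact permutation p = 0.0714 each), and leaving out any WT list gave 76.3 to 77.3 in the WT lists (exact permutation p = 0.0571 to 0.0952), since fewer regroupings remain. When all deposited peaks were used, or when a peak had to cover at least 50% of a site, the difference in the KO lists fell to 20.2 percentage points (exact permutation p = 0.0952) and 15.3 percentage points (p = 0.190). In the WT lists it was 88.3 and 61.2 percentage points under these settings. With the 10000 best peaks it was 58.9 in the KO and 59.7 in the WT lists. When 1 list at each time could break the pattern it was 39.3 and 50.4.

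In the KO lists the share of the sites chosen in WT was 10.8% ± 0.898 (SD, n = 3) at 1 h and 7.19% ± 2.25 (SD, n = 3) at 0 h. The groups did not overlap, and the difference of 3.59 percentage points gave p = 0.1 in the exact permutation test, which cannot go lower with 3 against 3 lists (adjusted p = 0.125). Its size rested on single WT lists, since choosing the sites anew gave 1.71 percentage points when WT 0 h replicate 3 was left out. Omission of replicate 1-2 of WT at 1 h gave 6.51 and of replicate 3 at that time 13.6 percentage points. It was 1.80 with the 10000 best peaks of each list and 12.9 with all deposited peaks (exact permutation p = 0.6 and 0.3). Both sets overlapped in 209 sites, which were 20.9% of the sites chosen in WT and 53.7% of those chosen in KO. Of the late-only sites, 76.2% were among the sites chosen in WT and 39.7% among those chosen in KO.

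**Figure D2:**
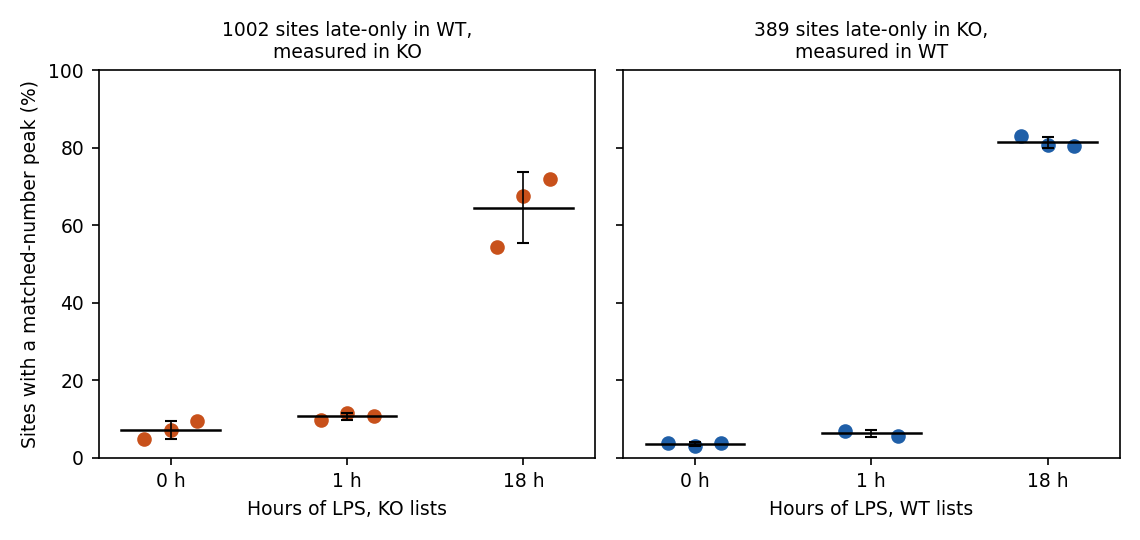
Share of sites with a matched-number peak (y axis, percent) by hours of LPS (x axis), for 1002 sites chosen in the WT lists and read in KO (left) and 389 sites chosen in KO and read in WT (right). Points are lists, horizontal lines group means and error bars SD. In both panels every list at 18 h, from 54.3% to 83.0%, lies above every list at 0 and 1 h, at 3.08% to 11.7%.

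The study asked whether Nur77 loss alters the response to LPS, and the rule counted the lists at 18 h without regard to genotype. It used the presence of peaks in these 6 lists, however, and let a site be missing from no more than 1 of them, so that the values of both genotypes at 18 h are a description with no test. Late-only sites carried a matched-number peak at 18 h in 96.7% ± 1.26 (SD, n = 3) of cases in WT and 84.4% ± 9.84 (SD, n = 3) in KO. The groups did not overlap, and the difference of KO minus WT was -12.3 percentage points, which became -9.28 and -19.4 when KO 18 h replicate 1 or 3 was omitted. It was -10.9 with the 10000 best peaks, where the groups overlapped, and -21.7 with all deposited peaks. When a peak had to cover at least 50% of a site it was -31.1, all of it from KO 18 h replicate 1, the list with the narrow peaks, which held 5.02% of the sites against 99.2% to 100% in the other lists of both genotypes. Over all 34141 consensus sites the share was also lower in the KO lists at 18 h, 56.2% to 64.0% against 67.6% to 70.4% in WT, and the part of list length and peak width in the difference at late-only sites was not tested. The median rank at 18 h was 18055 ± 153 (SD, n = 3) in WT and 17664 ± 1029.8 (SD, n = 3) in KO, a difference of -391 ranks that was smaller than the spread between KO lists. It was -2.17 ranks without KO 18 h replicate 3 and 65.7 ranks with the 50% cover, so that no direction is given for it.

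The late-only site with the best mean rank at 18 h lay in the Ifit gene cluster of chromosome 19. Ifit proteins bind foreign RNA and are strongly induced by interferon. This site between Ifit2 and Ifit3 ranked 2652, 3010 and 1821 in the WT lists at 18 h and 11531, 715 and 1478 in the KO lists. Before 18 h it had a single deposited peak, at rank 63810 in KO 0 h replicate 1. Further late-only sites of the cluster lay 5856 bp downstream of the Ifit3 start site, at the promoter of Ifit1bl1, in Ifit2 and downstream of Ifit1. The site in an intron of Ifit2 ranked 8577, 11910 and 10181 in WT and 27964, 10724 and 15396 in KO at 18 h, so that it fell short of the best 24389 only in KO replicate 1. The site downstream of Ifit1 ranked 14041, 12401 and 14164 in WT and 20225, 5262 and 7412 in KO. Each within 20 kb of the next, 3 late-only sites made up 3 of the 5 consensus sites between positions 34572578 and 34602566 of chromosome 19.

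A further run of 3 late-only sites with the same spacing, out of 5 consensus sites, covered 49063595 to 49087413 of chromosome 11 at Tgtp2 and Ifi47, which encode interferon-inducible GTPases that act on vacuoles of intracellular pathogens. The Ifi47 site with an ISRE ranked 13103, 11364 and 12880 in WT and 9840, 19401 and 13765 in KO at 18 h. Its only earlier deposited peak was at rank 43450, in KO 0 h replicate 1. These runs were the only ones of at least 3 members, and 94 late-only sites (11.8%) had another late-only site within 20 kb.

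Sites ranked next to Ifit3 by mean rank at 18 h lay at genes of varied function. An intron of Pigk, a subunit of the enzyme that attaches GPI anchors, ranked 7738, 5500 and 6043 in WT and 2552, 2055 and 5406 in KO. An intron of the nucleoside transporter gene Slc28a2 ranked 8404, 6607 and 6632 in WT and 4842, 2394 and 4737 in KO. The intergenic site 21450 bp upstream of Pdcd1lg2, which encodes the checkpoint ligand PD-L2, ranked 7900, 8667 and 6621 in WT and 7270, 4849 and 5364 in KO. These sites were picked for their ranks in the same lists, and the KO lists at 18 h were shorter than the WT lists, so that no difference between genotypes is read from the ranks of a single site. Of the other best-ranked sites, those at Arid3b, Dennd3, Kctd16, Gdi2, Tenm4, Naip2 and Hivep3 had mean ranks at 18 h from 7194 to 9079.7, and the one 3305 bp upstream of Gm17268, within 50 kb of the chemokine genes Ccl2, Ccl7 and Ccl11, a mean rank of 7357.5.

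**Figure D3:**
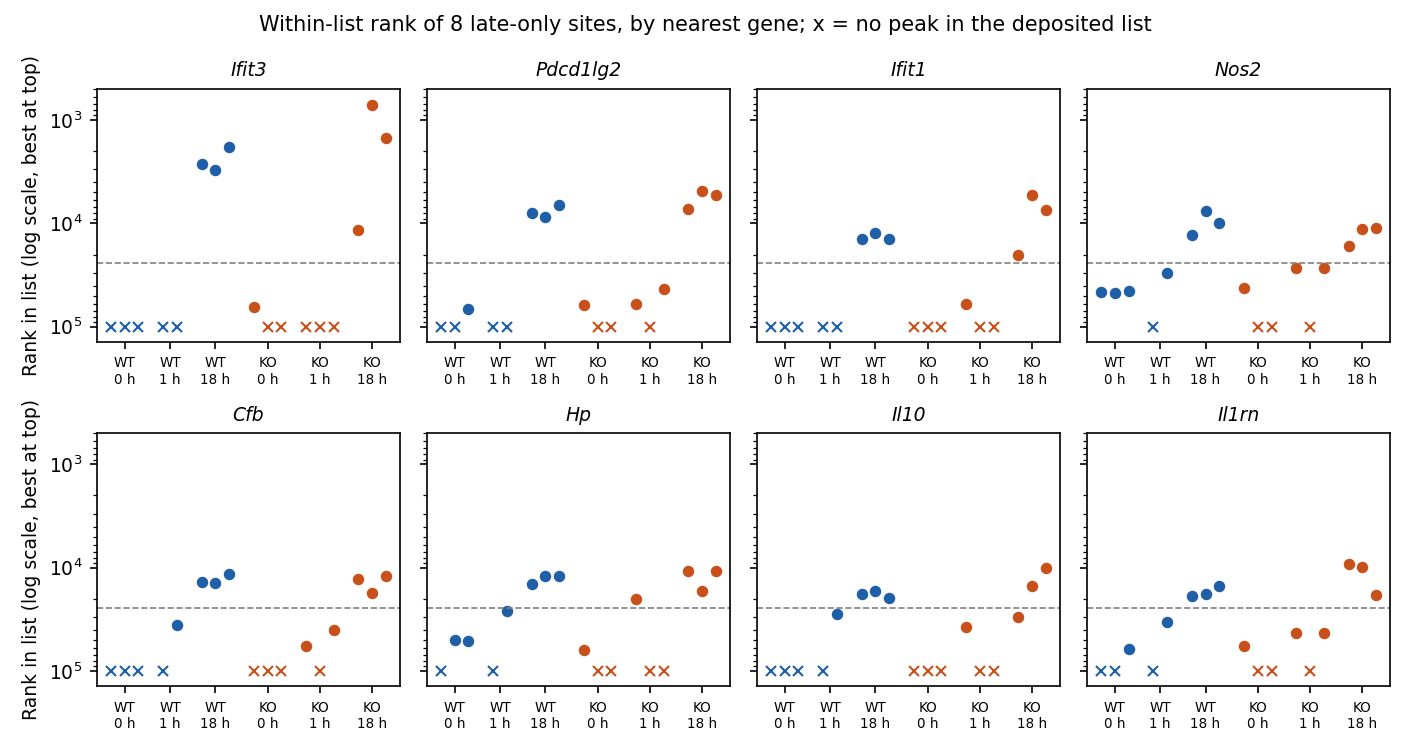
Within-list rank (y axis, log scale, best rank at the top) of 8 late-only sites in the 17 lists, grouped by genotype and hours of LPS (x axis) and named by the nearest gene. Blue is WT and orange KO, crosses mark lists with no deposited peak and the dashed line the rank of 24389. The sites rank above the line in the 18 h lists, except Il10 in KO 18 h replicate 1 at 30214, and the Ifit3 site reaches the best rank, 715.

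Genes were assigned as the protein-coding gene with the nearest start site, which does not show that a site acts on that gene. A late-only site was nearest to 729 genes, 5.53% of the 13175 genes nearest to any consensus site. Of 28 interferon-stimulated genes, 24 were nearest to a consensus site and 11 of these to a late-only site (45.8%). By site, 13 of their 65 sites (20%) were late-only, against 2.34% of all sites, while 1 was open only at 1 h and 1 at both 1 and 18 h. Among them were Ifit1, Ifit2, Ifit3, Mx1, Oas1a, Oas2, Gbp2, Gbp5, Irgm1 and Ddx58, which cover RNA sensing and antiviral effectors. Oas1a, whose product makes the activator of RNase L, had a late-only site 322 bp into the gene that ranked 12020, 14775 and 12022 in WT and 5827 and 15674 in 2 of the KO lists, with no peak in KO 18 h replicate 1. That promoter site was already in the deposited lists of all 6 samples at 0 h, at ranks 23419 to 31443. An ISRE match within 100 bp of the summit was found in 0 of the 13 sites and C/EBP in 0, against 7.63% and 31.9% of all late-only sites, and with 13 sites nothing is read from these counts.

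Genes of the late inflammatory response formed the group with the next largest share. Of 31 genes, 30 were nearest to a consensus site and 10 of these to a late-only site (33.3%), against 5.53% of all genes, and 12 of their 111 sites (10.8%) were late-only, against 2.34% of all sites. The same genes also had 11 sites open only at 1 h (9.91%) and 11 open at 1 and 18 h (9.91%), against 3.19% and 1.57% of all sites. C/EBP was matched in 6 of the 12 late-only sites and ISRE in 1, against 31.9% and 7.63% of all late-only sites, counts too small to set the group apart. Nos2, encoding inducible nitric oxide synthase, had 3 late-only sites among its 8 consensus sites. The Nos2 site with the best rank, inside an intron, ranked 12815, 7557 and 9814 in WT and 16368, 11382 and 11050 in KO at 18 h. The AP-1-bearing Nos2 site shown above ranked 18882, 14918 and 12888 in WT and 14218, 27714 and 14977 in KO, with 1 earlier peak, at rank 53708 in KO 1 h replicate 1. The third Nos2 site, 31594 bp upstream, ranked 18883, 20682 and 23921 in WT, had no peak in KO 18 h replicate 1 and ranked 13799 and 21266 in the other KO lists.

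Acute-phase and complement genes belonged to the same group. Hp, encoding haptoglobin, had a single consensus site, a late-only one 6719 bp upstream that ranked 14294, 12002 and 12095 in WT and 10738, 16707 and 10847 in KO at 18 h. It was within the best 24389 already in KO 1 h replicate 1, at rank 19901. The promoter of Cfb, encoding complement factor B, carried C/EBP, ISRE and STAT matches in the same window and ranked 13665, 14090 and 11591 in WT and 12936, 17751 and 12101 in KO at 18 h. It had no deposited peak in any of the 6 lists at 0 h. Saa3, which encodes an acute-phase serum amyloid, also had a single consensus site, 4057 bp upstream, at ranks 16260, 19415 and 20894 in WT and 15602, 14785 and 13457 in KO. Further late-only sites were nearest to Edn1, Ccl8, Clec4e, Il1a and the formyl peptide receptor genes Fpr1 and Fpr2.

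Feedback genes that restrain the response had late-only sites at 5 of 24 genes (20.8%), Il10, Il1rn, Gpnmb, Irak3 and Socs3, against 5.53% of all genes. By site, 6 of their 120 sites (5.00%) were late-only, against 2.34% of all sites, and another 6 (5.00%) were open at 1 and 18 h, against 1.57%. The site upstream of Il10, the main deactivating cytokine of macrophages, ranked 18010, 16823 and 19502 in WT and 30214, 15100 and 10127 in KO at 18 h. It had no deposited peak at 0 h, and peaks at 1 h at rank 27978 in WT replicate 3 and 37421 in KO replicate 1. The site 7944 bp downstream of the start of Il1rn, encoding the interleukin-1 receptor antagonist, ranked 18681, 17844 and 15065 in WT and 9185, 9806 and 18263 in KO.

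The share was lower at immediate-early genes. Late-only sites were nearest to 4 of 28 such genes (14.3%), namely Fos, Ptgs2, Tnfaip3 and Klf6, and made up 5 of 192 sites (2.604%), close to the 2.34% of all sites, whereas 19 of the 192 (9.90%) were open only at 1 h. The Fos site, 16272 bp downstream, ranked 10429, 13152 and 11852 in WT and 22728, 11462 and 17777 in KO at 18 h and had a deposited peak in all 6 lists at 0 h. Sites of C/EBP and bZIP factor genes were late-only in 3 of 135 cases (2.22%), 1 at Cebpb and 2 at Batf. A Batf intron site had no deposited peak in any list at 0 or 1 h and ranked 20085, 17283 and 22977 in WT and 22730, 17361 and 21393 in KO at 18 h. Metabolic genes held late-only sites in 2 of 169 cases (1.18%), at Pfkfb3 and Fth1, and genes of the macrophage surface, antigen presentation and matrix in 4 of 151 cases (2.65%), at Cd44 and Thbs1.

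The most late-only sites fell to Lpp, with 4 of its 35 consensus sites, followed by Pdcd1lg2, Nos2 and Marcks with 3 each, of 7, 8 and 21. Over all consensus sites 2.34% were late-only. Marcks encodes an actin-binding substrate of protein kinase C, and its late-only sites lay 53154, 65014 and 222235 bp upstream. In each of these there was a C/EBP or C/EBP-ATF match, against 31.9% and 7.63% of all late-only sites. Lpp encodes a cell adhesion protein, and 3 of its 4 late-only sites carried AP-1, against 19.9% of all late-only sites. With so few sites nothing is read from the motif counts of these genes. Abca1, the cholesterol exporter, had 2 late-only intron sites among 14, the better at ranks 11077, 9503 and 11363 in WT and 6667, 9938 and 11415 in KO at 18 h. Ifit3, Tenm4 and Antxr1 also had 2, and 65 genes had 2 or more.

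Late-only sites were mostly distal. Only 41 of the 799 (5.13%, 95% Wilson interval 3.80 to 6.89) had their summit within 1 kb of a start site, against 30.2% of all consensus sites, 5.33% of sites open only at 1 h and 7.28% of sites open at 1 and 18 h. Introns held 49.8%, intergenic sequence 40.3% and exons 4.76% of the late-only sites. The median distance to the nearest start site was 17613 bp over all members and 19508 bp over the 758 members beyond 1 kb, against 18120.5 bp of all sites over 1 kb from a start site. Summits in annotated repeats made up 13.5% of late-only sites and 11.2% of those distal sites. Median GC content of the 201 bases around the summit was 48.3% at late-only sites and 49.3% at distal sites in general. By chromosome the late-only share of sites ranged from 1.40% on chromosome 9 to 3.12% on chromosome 2 among the autosomes, with 3 of 527 sites on X. The promoter share rose to 18.9% among the 285 sites found with the 10000 best peaks of each list and was 3.68% among the 353 found with all deposited peaks.

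Motif content is given as shares over sites, which are not replicates, with intervals that cover counting error only. C/EBP matches lay within 100 bp of the summit in 255 of 799 late-only sites (31.9%, 95% Wilson interval 28.8 to 35.2). The share was 20.8% (20.3 to 21.3) in all sites over 1 kb from a start site, 16.9% in all consensus sites, 18.0% (15.8 to 20.4) in sites open only at 1 h and 25.4% (21.9 to 29.2) in sites open at 1 and 18 h. At least 2 C/EBP matches were found in 7.01% of late-only sites, 4.10% of sites open at 1 and 18 h, 2.87% of distal sites and 2.11% of sites open only at 1 h. When a peak had to cover at least 50% of a site, C/EBP was in 24.3% of the 239 late-only sites (19.3 to 30.1), an interval that held the 20.7% of distal sites under the same setting. The composite C/EBP-ATF element was in 7.63% (5.99 to 9.69) of late-only sites and 4.38% of distal sites, but with the 10000 best peaks of each list it was in 4.91% of the 285 late-only sites (2.95 to 8.08) and with all deposited peaks in 5.67% of 353 (3.70 to 8.59), and both intervals held the 4.12% of distal sites under these settings.

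AP-1 was found in 19.9% (17.3 to 22.8) of late-only sites, the same share as in all consensus sites (19.9%, 19.4 to 20.3). It was in 26.3% (25.8 to 26.9) of distal sites, 29.9% (26.1 to 33.9) of sites open at 1 and 18 h and 36.7% (33.9 to 39.6) of sites open only at 1 h. NF-kB was found in 4.51% (3.27 to 6.17) of late-only sites, a share whose interval held the 5.20% of distal sites, while it reached 13.6% (11.7 to 15.8) in sites open only at 1 h and 18.7% (15.6 to 22.2) in sites open at 1 and 18 h. ISRE was in 7.63% (5.99 to 9.69) of late-only and 4.28% (4.03 to 4.55) of distal sites, with 8.77% in sites open at both times. The other IRF element, the PU.1-IRF composite (GGAANNGAAA), had a lower share in late-only sites, 2.38% (1.53 to 3.68) against 4.99% (4.72 to 5.27) of distal sites. With the 10000 and 20000 best peaks and the 50% cover it was 3.16% (1.67 to 5.89), 3.56% (2.40 to 5.24) and 3.35% (1.71 to 6.46). These intervals held the 5.02%, 4.90% and 4.97% of distal sites. With all deposited peaks it was 1.70% (0.781 to 3.66) against 4.57%. CTCF, the insulator protein, was matched in 2 late-only sites (0.250%, 0.0687 to 0.908) against 3.57% of distal sites. With the 10000 best peaks its share was 0.351% (0.0620 to 1.96), an interval that held the 1.56% of distal sites. NBRE (AAAGGTCA), the monomer element of Nur77, was found in 12 late-only sites (1.50%, 0.861 to 2.61) and 1.27% of distal sites, PU.1 in 8.01% and 9.72%, STAT in 5.63% and 6.23%, and RUNX (TGTGGT) in 20.7% and 22.0%. Some of these shares moved with the number of peaks kept. Among the 353 late-only sites found with all deposited peaks, NF-kB was in 7.93% (5.54 to 11.2) against 3.91% of distal sites, PU.1 in 3.40% (1.96 to 5.85) against 8.08%, and AP-1 in 16.7% (13.2 to 20.96), an interval that held the 20.2% of distal sites. STAT was in 3.68% of these 353 sites (2.16 to 6.20) against 6.16%. NBRE was in 0 of them, which allows a share of up to 0.850% when 3 counts are taken as the limit and 1.08% by the Wilson interval, against 1.17% of distal sites. With a window of 50 bp the C/EBP shares were 19.3% in late-only and 11.6% in distal sites, and with 200 bp 47.6% and 34.5%.

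**Figure D4:**
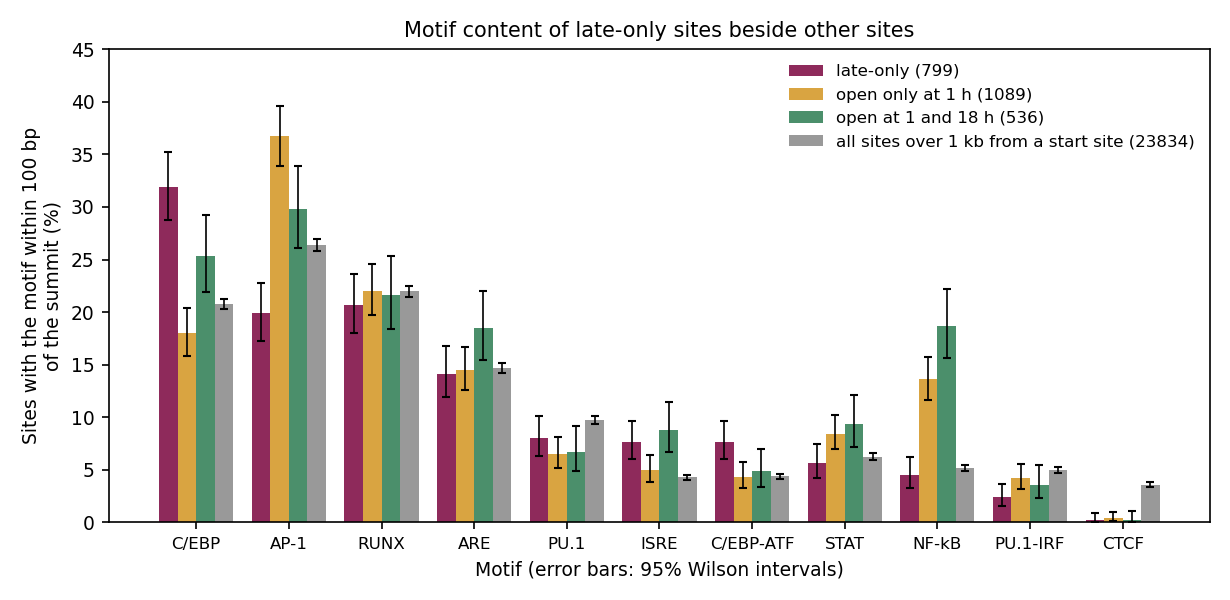
Share of sites (y axis, percent) with each of 11 motifs (x axis) within 100 bp of the summit, in late-only sites, sites open only at 1 h, sites open at 1 and 18 h, and all consensus sites over 1 kb from a start site. Error bars are 95% Wilson intervals. C/EBP is highest in late-only sites (31.9%), AP-1 in sites open only at 1 h (36.7%) and NF-kB in sites open at 1 and 18 h (18.7%).

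C/EBP matches of late-only sites were densest near the summit. Late-only sites had 23.0 matches per 100 sites within 50 bp of the summit and 13.9 between 100 and 150 bp away, while the other distal sites had 12.9 and 10.4. For ISRE these densities were 5.01 and 2.38 in late-only and 2.73 and 2.19 in other distal sites, and for AP-1 13.6 and 3.63 against 20.1 and 6.11. AP-1 was therefore also densest at the summit of late-only sites, at a lower density than in the other distal sites.

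**Figure D5:**
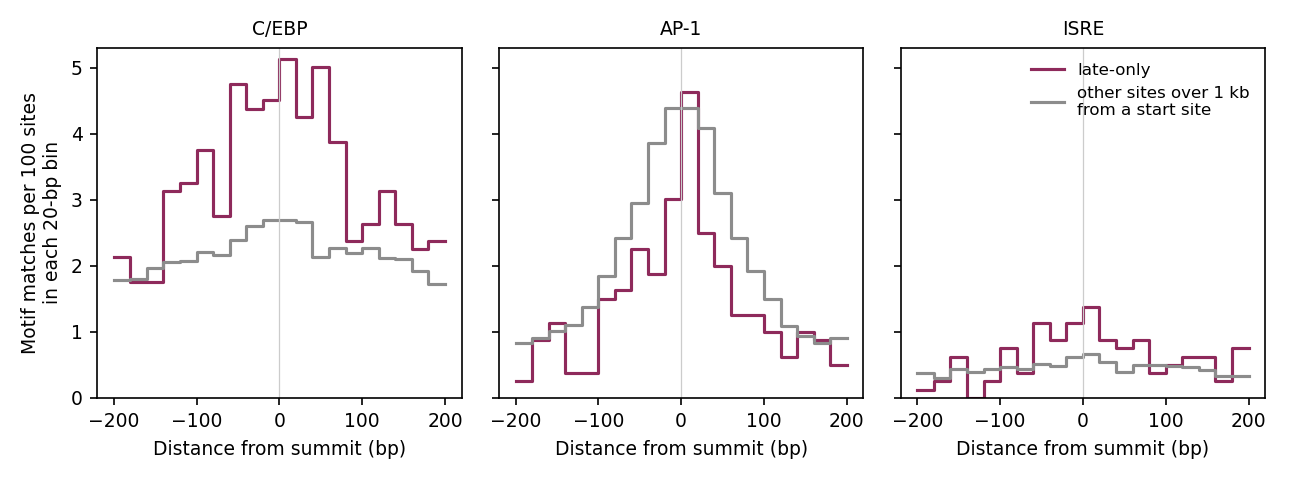
Motif matches per 100 sites in bins of 20 bp (y axis) by distance of the match from the summit in bp (x axis), for C/EBP, AP-1 and ISRE in 799 late-only sites and 23076 other sites over 1 kb from a start site. The highest bin of C/EBP holds 5.13 matches per 100 late-only sites and 2.69 per 100 other sites, and that of AP-1 4.63 and 4.39, with the AP-1 curve of late-only sites lower in most bins within 100 bp.

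Within the late-only sites the intervals of the C/EBP share overlapped between better-ranked and worse-ranked sites. The share was 34.1% (28.7 to 39.96) in the best-ranked 267 sites, 30.5% (25.2 to 36.2) in the next 266 and 31.2% (25.9 to 37.0) in the last 266. It was 32.3% in the 647 sites with a deposited peak in at least 3 lists at 0 h and 30.8% (16.5 to 49.99) in the 26 sites with no earlier peak. AP-1 was found in 1 of those 26 sites (3.85%, 0.682 to 18.9), against 20.2% of the 647 sites, and ISRE and NF-kB were also found in 1 each. Nothing is read from such single counts. Among the 41 promoter sites, 15 carried C/EBP (36.6%, 23.6 to 51.9), 8 ISRE (19.5%, 10.2 to 34.0) and 1 AP-1 (2.44%, 0.432 to 12.6). Over all 10307 consensus sites within 1 kb of a start site the shares were 8.13%, 2.12% and 4.85%, so that AP-1 in late-only promoter sites was near that of promoter sites in general. C/EBP and AP-1 occurred together in 6.26% of late-only and 5.29% of distal sites. C/EBP with ISRE was found in 2.13% and 0.910%. In sites open only at 1 h and sites open at 1 and 18 h, C/EBP with AP-1 reached 6.52% and 9.14%, and C/EBP with ISRE 1.38% and 1.49%. Whether the pairs differ from what the single shares give was not tested. No match to C/EBP, AP-1, C/EBP-ATF, ISRE, PU.1, STAT, NF-kB or the PU.1-IRF composite was left for 296 late-only sites (37.0%), among them the best-ranked Ifit3 site, against 39.8% of distal sites, 33.1% of sites open only at 1 h and 27.4% of sites open at 1 and 18 h.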

How the data were processed

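ATAC-seq was measured in 17 BMDM samples. The authors trimmed reads with cutadapt 2.6, aligned them to mm10, dropped alignments under a mapping quality of 20, duplicates and mitochondrial reads, and made a peak list for every sample at a q-value of 0.001. The aligner and peak caller versions are not given in the sources used here. Each deposited list gives, per peak, an integer score, the fold ratio of pileup over background at the summit, and −log10 p-values and q-values as made by the authors. These values depend on the depth of a list, so only their order within a list was used. No read counts were used, and the authors' comparison with DiffBind 3.0.15 was not refitted.

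Intervals that occurred more than once were collapsed (1001519 entries to 808470 intervals), 1 entry without a summit was given its middle, peaks were ranked by −log10 p-value with ties by fold and position, and the 24389 best of each list were merged with at least 1 bp of overlap. Sites open only at 1 h were in at least 4 of 5 lists at 1 h and at most 1 list at each other time, and sites open at 1 and 18 h in at least 4 of 5 and 5 of 6 with at most 1 at 0 h. Start sites, exons and introns came from GENCODE vM21 protein-coding genes, sequence from the NCBI RefSeq copy of GRCm38. In all, 15 motifs were searched on both strands, NF-kB and CTCF by their usual degenerate consensus. Exact permutation tests over lists, two-sided, compared groups, Benjamini-Hochberg adjusted over 5 tests. Both tests between genotypes at 18 h used the lists that chose the members, so their p-values are not given. They still count among the 5, so the adjusted p-values printed here depend on them. The software was python 3.11.15, numpy 2.4.6, pandas 2.3.3 and scipy 1.17.1. Site building and testing were checked on simulated lists.

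The members, the 7 gene lists (210 genes, of which 208 were found in the annotation) and the motifs were chosen with earlier results of these data known. Named were the 12 members with the best mean rank at 18 h, the 8 genes nearest to the most members and up to 30 list genes nearest to a member, best-ranked first. Mx1, Ddx58, Irgm1, Il1a, Irak3 and Socs3, which complete the list counts, and the genes at the runs of sites were added after their values were seen. A named gene and the sequence of an NF-kB site are not reported here. Same-numbered lists did not deviate together (correlation of presence deviations -0.0186 to 0.0655 over 12 pairs), so the main tests had no replicate block.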

Additional observations from a re-analysis of the deposited data

How the results depend on the processing

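The number of late-only sites was 285 with the 10000 best peaks of each list, 353 with all deposited peaks, 239 when a peak had to cover at least 50% of a site and 209 when 6 of 6 lists at 18 h and none before were required. Leaving out 1 list, with the rest merged anew, gave 824 to 1067 sites, the highest without KO 18 h replicate 1. The difference between genotypes in the share at 18 h was -19.4 to -9.28 percentage points when 1 list was left out, -10.9 with the 10000 best peaks, -21.7 with all deposited peaks and -31.1 with the 50% cover, and it was 0 when 6 of 6 lists at 18 h were required, since every site is then in all of these lists. The median rank difference between genotypes ranged from -749.5 to -2.17 without 1 list and turned to 65.7 ranks with the 50% cover. Sites chosen in WT and read in KO differed by 20.2 percentage points with all deposited peaks (exact permutation p = 0.0952) and by 15.3 with the 50% cover (p = 0.190), and by 50.6 to 60.7 when 1 list was left out. Without KO 18 h replicate 1, 2 or 3 the values were 60.7, 54.1 and 51.9, each with exact permutation p = 0.0714, because fewer regroupings exist. Sites chosen in KO and read in WT differed by 61.9 to 77.3 percentage points when 1 list was left out, with exact permutation p from 0.0571 to 0.0952 without any single WT list. With a replicate block these differences were 55.6 (exact permutation p = 0.0741) and 77.3 percentage points (p = 0.167, with WT 1 h replicate 1-2 dropped because its name matches no single number), and the block changed no other call. At 1 h against 0 h the difference was 1.71 to 13.6 percentage points when 1 list was left out, the lowest without WT 0 h replicate 3 and the highest without WT 1 h replicate 3, 12.9 with all deposited peaks, 10.1 with the 50% cover and 8.81 when 1 list at each time could break the pattern. That looser rule gave 50.4 percentage points for sites chosen in KO and read in WT. The C/EBP share stayed between 31.3% and 32.6% when 1 list was left out and was 24.3% with the 50% cover. Of the other shares, NF-kB moved from 4.51% to 7.93%, PU.1 from 8.01% to 3.40%, STAT from 5.63% to 3.68% and NBRE from 1.50% to 0 with all deposited peaks, and C/EBP-ATF from 7.63% to 4.91% with the 10000 best peaks and 5.67% with all deposited peaks. PU.1-IRF moved from 2.38% to 3.16% and 3.56% with the 10000 and 20000 best peaks, 3.35% with the 50% cover and 3.66% without KO 18 h replicate 1. Peaks of KO 18 h replicate 1 had a median width of 135 bp and late-only sites 932 bp, and the lists hold no read totals, so their depth is unknown and its part in the length of a list was not tested.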
